A study of Mus musculus with 16 samples.

Results

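The genes described here are 10 microglia and complement genes of the mouse brain: Cx3cr1, P2ry12, Tmem119, Csf1r, Aif1, C1qa, C1qb, C1qc, Trem2 and Itgam. They were chosen by name, as the probe sets that the platform's table assigns to these symbols and to no other. Each gene had exactly 1 such probe set, which makes 10 of the 21780 probe sets with a single symbol and of the 28815 deposited. For Itgam, 3 further probe sets that also name Rpl35 were left out.

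Signals come from the hippocampi of female mice aged 3 months, from an F2 cross of C57BL/6J and DBA. The mice were either cbp+/- (heterozygous for a deficiency of Crebbp, which encodes the acetyltransferase CBP) or wild-type littermates, and both genotypes were kept in standard cages or for 2 weeks in an enrichment box. Every array read pooled RNA of 4 mice, so that the spread between animals within a pool is not seen. Standard cages gave 5 arrays of either genotype and enrichment gave 3, written here as WT_SC, CBP_SC, WT_EE and CBP_EE with the replicate number. Values are log2 of the deposited intensity. The level of 1 probe set is not compared with that of another, except that some are set against the array median.

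Microglia are the resident macrophages of the brain. They depend on signalling through the receptor encoded by Csf1r, sense neurons and nucleotides through Cx3cr1 and P2ry12, and in the hippocampus they clear dying newborn neurons and synapses. C1q, built from the products of C1qa, C1qb and C1qc, starts the classical complement cascade and in the healthy brain is made chiefly by microglia. Itgam encodes the alpha chain of complement receptor 3, which binds cleaved C3, and Trem2 encodes a lipid-sensing receptor that signals through the adaptor Tyrobp. Tmem119 marks microglia among brain cells and Aif1 encodes the actin-binding protein Iba1. In bulk tissue such as this, fewer cells of a type and less RNA per cell cannot be told apart.

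The 3 C1q genes lie side by side on chromosome 4 in the RefSeq annotation, in the order C1qb, C1qc, C1qa, with 0 other protein-coding genes between them, and their signals moved together in part, as given below. RefSeq's promoter table (GRCm38.p6) held 7 of the 10 genes. The 250 bases before the start are shown for the 2 C1q genes it holds, both on the minus strand, C1qb at chr4:136886201-136886450 and C1qc at chr4:136892915-136893164. Capitals mark GAGGAA on either strand, a core recognised by ETS factors such as PU.1, the master regulator of macrophages.
C1qb: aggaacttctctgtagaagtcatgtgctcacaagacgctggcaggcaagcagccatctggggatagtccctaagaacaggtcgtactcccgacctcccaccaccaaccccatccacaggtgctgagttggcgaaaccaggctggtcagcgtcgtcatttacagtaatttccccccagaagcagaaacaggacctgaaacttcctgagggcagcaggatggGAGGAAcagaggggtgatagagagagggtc
C1qc: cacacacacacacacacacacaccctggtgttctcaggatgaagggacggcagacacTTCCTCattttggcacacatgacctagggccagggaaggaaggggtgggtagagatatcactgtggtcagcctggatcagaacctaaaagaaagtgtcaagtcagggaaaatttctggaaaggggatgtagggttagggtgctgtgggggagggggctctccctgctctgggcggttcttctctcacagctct
The match began 30 bases before the start in C1qb and 193 bases before it, on the opposite strand, in C1qc. Of the 7 genes, 5 held GAGGAA in this window (Aif1, C1qb, C1qc, Trem2 and Itgam), against 23.3% of all 32851 windows of that length. The CREB half-site TGACG, searched on both strands, was in 2 of the 7 (C1qb and Trem2) and in 17.8% of all windows, and the full site TGACGTCA, which contains the half-site, was in 0 of the 7 and in 1.55%. A match is a description of the letters and not evidence of binding.

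Arrays differed along lines other than the study's groups. Ward clustering of all probe sets placed the 8 arrays numbered 1 and 2 of all groups in one set, WT_SC_3 with CBP_SC_3 in another, WT_SC_4 with CBP_SC_4 in another, and WT_SC_5, CBP_SC_5, WT_EE_3 and CBP_EE_3 in the last. These sets are groupings of the signals and not labelled batches. The median log2 signal per array ran from 6.26 to 6.42. WT_EE arrays had medians of 6.32 to 6.42 and interquartile ranges of 2.3 to 2.43, against 6.27 to 6.31 and 2.51 to 2.59 on WT_SC. The interquartile range was 2.42 to 2.55 on CBP_EE and 2.51 to 2.65 on CBP_SC. The part of the narrower range in the wild-type differences was not tested. Crebbp itself had a mean of 9.57 (SD 0.22, n = 5) on CBP_SC and of 9.43 (SD 0.18, n = 5) on WT_SC. The 2 means were 0.14 apart (SE 0.099, limma adjusted p = 1.00), and in enrichment 9.36 stood against 9.26. Crebbp was higher in cbp+/- in 5 of 5 standard-cage pairs and 3 of 3 enrichment pairs of the same number. Of all probe sets, 11.6% were higher in every enrichment pair, and the share for standard cages is not given here. A lower signal of this probe set in cbp+/- was thus not seen, and whether it can show the labelled deficiency was not tested. Genotypes are therefore those of the labels, and each direction between them rests on the labels alone. The log2 of the summed signal of 12 hippocampal neuron markers was lower on every WT_EE array (13.76 to 13.87) than on any WT_SC array (13.88 to 14.07), while CBP_EE (13.86 to 13.91) and CBP_SC (13.88 to 14.11) overlapped. Its part in the housing differences was not tested. That of 11 choroid plexus markers was 12.94 on CBP_SC_3 and between 9.36 and 11.30 on the others; its part in the values of that array was not tested.

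Neither housing nor genotype went with a change of any of the 10 genes that passed the test. With limma and Benjamini-Hochberg adjustment over 21780 probe sets, 0 of 10 were called in any of 7 comparisons, namely the housing difference within either genotype, the genotype difference within either housing, their interaction, and the housing and genotype effects averaged over the other factor. The background was equally empty, with 0% of all probe sets called in each comparison. At an unadjusted p under 0.05, the housing difference took in 0 of 10 genes in wild type (17.8% of all probe sets), 0 in cbp+/- (2.82%) and 1 on average (19.1%). The genotype difference took in 0 of 10 in standard cages (0.987%), 0 in enrichment (5.23%) and 0 on average (3.91%), and the interaction 0 (2.66%). With the replicate number as a block, which pairs the genotypes, the genotype difference took in 1 of 10 (C1qa) in enrichment (2838 of all 21780 probe sets) and 1 on average (C1qa again, 2554 of 21780), and 0 in standard cages (957 of 21780), while 0 of 10 passed after adjustment. The groups overlapped for 10 of 10 genes in each of the 6 comparisons of groups.

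Among all probe sets, by contrast, 9.16% had every wild-type enrichment array above every wild-type standard-cage array and 2.00% had every one below. In cbp+/- these shares were 1.64% and 1.25%, and over both genotypes 0.142% and 0.0643%. For cbp+/- above or below wild type they were 0.174% and 0.0872% in standard cages, 3.53% and 6.85% in enrichment, and 0% and 0.00459% over both housings. With enrichment in wild type 6 of the 10 genes were higher (median 0.037), as were 58.4% of all probe sets (median 0.029). Averaged over genotypes 6 of 10 were higher (median 0.054, against 58.9% and 0.021), and cbp+/- was higher than wild type on average in 5 of 10 (median 0.0096, against 43.3% and -0.0095).

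**Figure D1:**
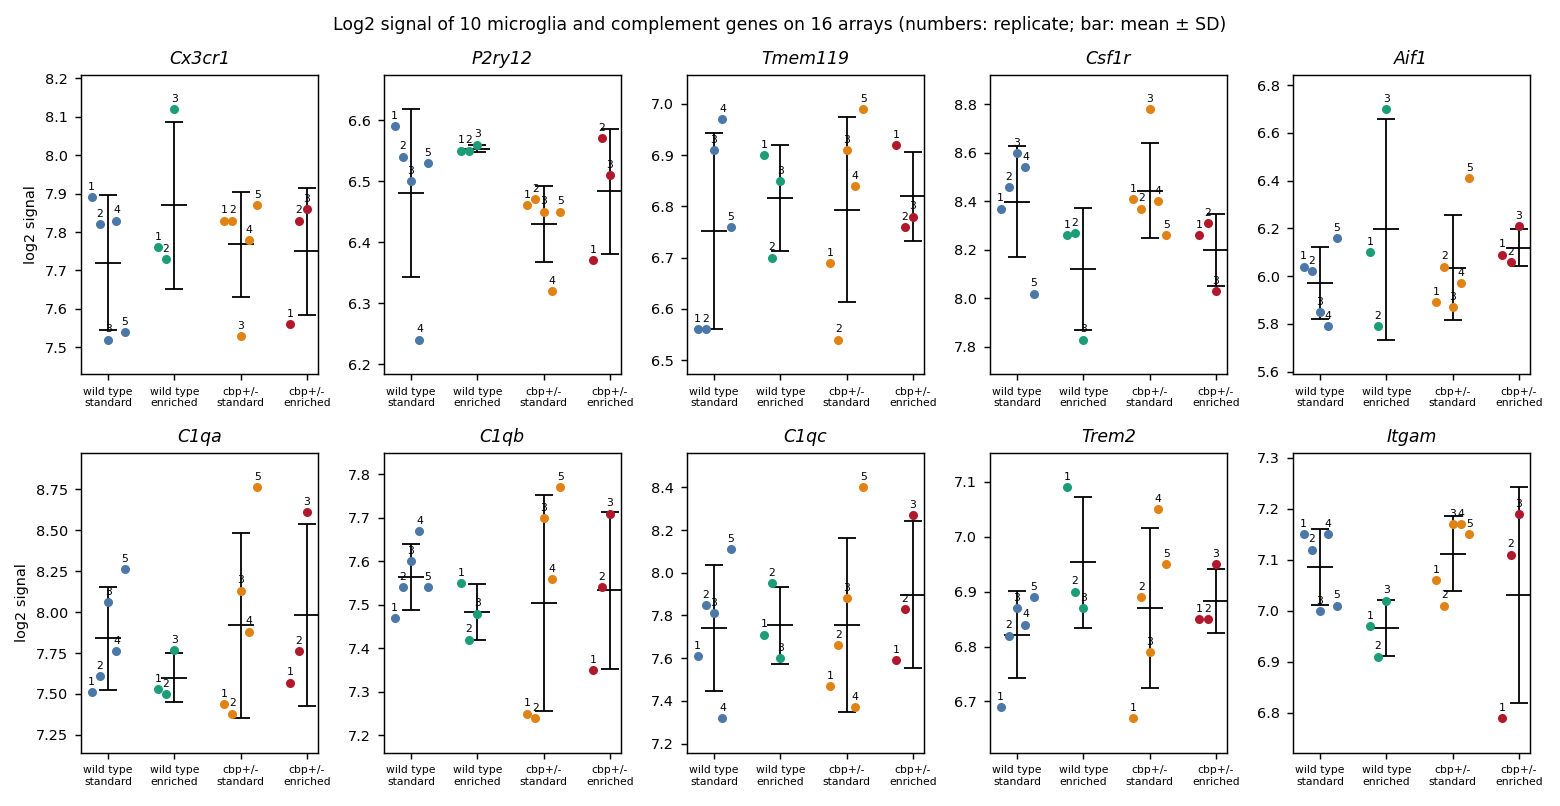
Each panel plots the log2 signal of 1 gene (vertical axis) on each array of the 4 groups (horizontal axis), with replicate numbers beside the points and bars for the mean ± SD (n = 5 in standard cages, n = 3 in enrichment). The groups overlap in every panel, and C1qa spans the widest range, from 7.38 to 8.76.

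Of the receptors, Csf1r stood lowest in enrichment relative to its own level in standard cages. Its log2 signal was 8.37, 8.46, 8.60, 8.54 and 8.02 on WT_SC_1 to WT_SC_5 and 8.26, 8.27 and 7.83 on WT_EE_1 to WT_EE_3. On the cbp+/- arrays it was 8.41, 8.37, 8.78, 8.40 and 8.26 in standard cages and 8.26, 8.31 and 8.03 in enrichment. All 6 enrichment arrays were below the standard-cage arrays numbered 1 to 4 of their own genotype, and in both genotypes the fifth standard-cage array was low too. The difference was -0.28 (SE 0.14, adjusted p = 0.331) in wild type, or -0.13 without WT_EE_3, and -0.24 (SE 0.14, adjusted p = 0.999) in cbp+/-. Averaged over genotypes it was -0.26 (SE 0.10, 95% confidence interval -0.48 to -0.041, adjusted p = 0.205), or 1.20-fold lower. Csf1r was the only 1 of the 10 genes with an unadjusted p under 0.05 in this averaged comparison, where 5.73% of all probe sets were lower at that level and 13.4% higher. Within the arrays numbered 1 and 2 the averaged difference was -0.12, within standard-cage 5 and enrichment 3 it was -0.21, and without those 4 arrays it was -0.21 (SE 0.078, adjusted p = 0.114). With the 4 sets as a block it was -0.15 (SE 0.050, adjusted p = 0.127). Only the limma fit with array weights passed, at -0.15 (adjusted p = 0.0386), where 6167 of all 21780 probe sets were called. Over all alternatives the adjusted p ranged from 0.0386 to 0.524.

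Itgam was also lower in enrichment in both genotypes without passing the test. It read 7.15, 7.12, 7.15 and 7.01 on WT_SC_1, WT_SC_2, WT_SC_4 and WT_SC_5, and slightly less on WT_SC_3 (an intensity of 127.9, against 129.2 on WT_SC_5). In wild-type enrichment it read 6.97, 6.91 and 7.02. In cbp+/- it read 7.06, 7.01, 7.17, 7.17 and 7.15 in standard cages and 6.79, 7.11 and 7.19 in enrichment. Of the enrichment arrays, 2 of 3 in wild type lay below every standard-cage array, while in cbp+/- 1 of 3 lay below and 1 of 3 above. The differences were -0.12 (SE 0.079, adjusted p = 0.435) in wild type, -0.082 (SE 0.079, adjusted p = 0.999) in cbp+/- and -0.10 (SE 0.056, adjusted p = 0.330) on average. The cbp+/- value rests on 1 array: without CBP_EE_1 it was 0.040, and the average -0.040. Array weights gave -0.21 on average (adjusted p = 0.00388) and -0.23 in cbp+/- (adjusted p = 0.0418), while the other alternatives for the average did not pass. Of all 21780 probe sets, array weights called 6167 on average and 1039 in cbp+/-. Within the arrays numbered 1 and 2 the averaged difference was -0.14, and within the set of standard-cage 5 and enrichment 3 it was 0.024.

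Cx3cr1, the receptor for the neuronal chemokine fractalkine, gave no common direction. In wild type it was 7.89, 7.82, 7.52, 7.83 and 7.54 in standard cages and 7.76, 7.73 and 8.12 in enrichment. In cbp+/- it was 7.83, 7.83, 7.53, 7.78 and 7.87 in standard cages and 7.56, 7.83 and 7.86 in enrichment. WT_EE_3 was the highest of all 16 arrays and both standard-cage arrays numbered 3 were low. The housing difference was 0.15 (SE 0.12, adjusted p = 0.523) in wild type, 0.024 without WT_EE_3 and -0.11 within the arrays numbered 1 and 2. In cbp+/- it was -0.020 (SE 0.12, adjusted p = 0.999), and the interaction was -0.17 (SE 0.17, adjusted p = 1.00), or -0.043 without WT_EE_3.

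P2ry12, the ADP receptor that guides microglial processes, was among the steadiest of the genes. Over the 16 arrays it ran from 6.24 to 6.59, a residual SD of 0.097 within groups. The WT_EE arrays read 6.55, 6.55 and 6.56, and the 2 lowest arrays were WT_SC_4 (6.24) and CBP_SC_4 (6.32). Housing differed by 0.072 (SE 0.071, adjusted p = 0.620) in wild type and 0.056 (SE 0.071, adjusted p = 0.999) in cbp+/-. Without WT_SC_4 the wild-type difference was 0.012. Averaged over housings, cbp+/- differed from wild type by -0.059 (SE 0.051, 95% interval -0.17 to 0.049, adjusted p = 0.999), with 2 of 8 same-numbered pairs higher, and by -0.030 without CBP_EE_1. In enrichment, array weights alone gave a genotype difference that passed, -0.15 (adjusted p = 0.0467), where 2474 of all 21780 probe sets were called.

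Trem2 ran from 6.67 to 7.09 over the 16 arrays. In wild type it was 6.69, 6.82, 6.87, 6.84 and 6.89 in standard cages and 7.09, 6.90 and 6.87 in enrichment, and 2 of 3 enrichment arrays were above every standard-cage array. That difference was 0.13 (SE 0.080, adjusted p = 0.397), or 0.063 without WT_EE_1. In cbp+/- the difference was 0.013 (SE 0.080, 95% interval -0.16 to 0.18, adjusted p = 0.999). The difference between both housing effects was -0.12 (SE 0.11, adjusted p = 1.00), or -0.050 without WT_EE_1, so a response of wild type alone was not shown.

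Tmem119, a membrane protein gene used to tell microglia from infiltrating macrophages, differed by 0.064 (SE 0.11) with enrichment in wild type and 0.026 (SE 0.11) in cbp+/-, and by 0.043 (SE 0.097) and 0.0044 (SE 0.13) between genotypes in standard cages and enrichment. Each is smaller than its SE. Its arrays numbered 1 and 2 in standard cages were low (6.56 and 6.56 in wild type, 6.69 and 6.54 in cbp+/-). Within the 8 arrays numbered 1 and 2, enrichment was therefore 0.23 higher (SE 0.062, adjusted p = 0.0302), a setting chosen after seeing the data. Of 1876 values of the 10 genes under all alternatives, 5 passed: this one and the 4 with array weights given above for Csf1r, Itgam and P2ry12. Both settings also called many of all probe sets in these comparisons, with the counts given in the last section. Within standard-cage 5 and enrichment 3 the averaged difference of Tmem119 was -0.061.

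Aif1 depended on 1 array. It was 6.04, 6.02, 5.85, 5.79 and 6.16 in wild-type standard cages and 6.10, 5.79 and 6.70 in enrichment. In cbp+/- it was 5.89, 6.04, 5.87, 5.97 and 6.41 in standard cages and 6.09, 6.06 and 6.21 in enrichment. The wild-type difference of 0.22 (SE 0.17, adjusted p = 0.500) was -0.030 without WT_EE_3, the highest array of all 16, and 0.43 without WT_EE_2. In cbp+/- enrichment differed by 0.084 (SE 0.17, adjusted p = 0.999). The WT_SC mean of Aif1, 5.97, lay below the WT_SC array medians of 6.27 to 6.31, and the part of signal level was not tested.

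The genes of C1q varied more between arrays of 1 group than between groups. C1qa had a residual SD of 0.44 within groups, at the 99.1 percentile of all probe sets, C1qc one of 0.33 (95.9 percentile) and C1qb one of 0.17, close to that of Cx3cr1. C1qa was 7.51, 7.61, 8.06, 7.76 and 8.26 in wild-type standard cages and 7.53, 7.50 and 7.77 in enrichment. In cbp+/- it was 7.44, 7.38, 8.13, 7.88 and 8.76 in standard cages and 7.57, 7.76 and 8.61 in enrichment. The 3 highest arrays were CBP_SC_5, CBP_EE_3 and WT_SC_5, and the lowest and highest of the 16 were 2.60-fold apart. C1qc, at 7.61, 7.85, 7.81, 7.32 and 8.11 in wild-type and 7.47, 7.66, 7.88, 7.37 and 8.40 in cbp+/- standard cages, was also highest on the fifth array of each genotype. It differed from C1qa in being lowest on both arrays numbered 4. In enrichment C1qc was 7.71, 7.95 and 7.60 in wild type and 7.59, 7.83 and 8.27 in cbp+/-. C1qb stayed between 7.24 (CBP_SC_2) and 7.77 (CBP_SC_5).

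Neither comparison separated the C1q genes. Enrichment differed from standard cages in wild type by -0.24 for C1qa (SE 0.30, 95% interval -0.87 to 0.39), -0.083 for C1qb (SE 0.12) and 0.011 for C1qc (SE 0.23), and in cbp+/- by 0.066 (SE 0.30), 0.031 (SE 0.12) and 0.14 (SE 0.23). Between genotypes in standard cages they differed by 0.076 (SE 0.26), -0.061 (SE 0.10) and 0.016 (SE 0.20). In enrichment C1qa was 0.38 higher in cbp+/- than in wild type (SE 0.33, 95% interval -0.33 to 1.09, adjusted p = 0.949), higher in 3 of 3 same-numbered pairs, as were 11.6% of all probe sets. With the replicate block the SE was 0.15 and the interval, 0.036 to 0.73, left out 0, but the adjusted p of 0.358 did not pass. The value rests on single arrays: it was 0.066 without CBP_EE_3 and 0.59 without CBP_EE_1. For C1qb and C1qc it was 0.053 (SE 0.13) and 0.15 (SE 0.25). Averaged over housings, cbp+/- differed by 0.23 for C1qa (SE 0.21, adjusted p = 0.999, higher in 6 of 8 pairs; 95% interval 0.010 to 0.45 and adjusted p = 0.411 with the replicate block), 0.071 without CBP_EE_3 and 0.060 without standard-cage 5 and enrichment 3. It differed by -0.0043 for C1qb (SE 0.083) and 0.081 for C1qc (SE 0.16), each with 4 of 8 pairs higher.

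**Figure D2:**
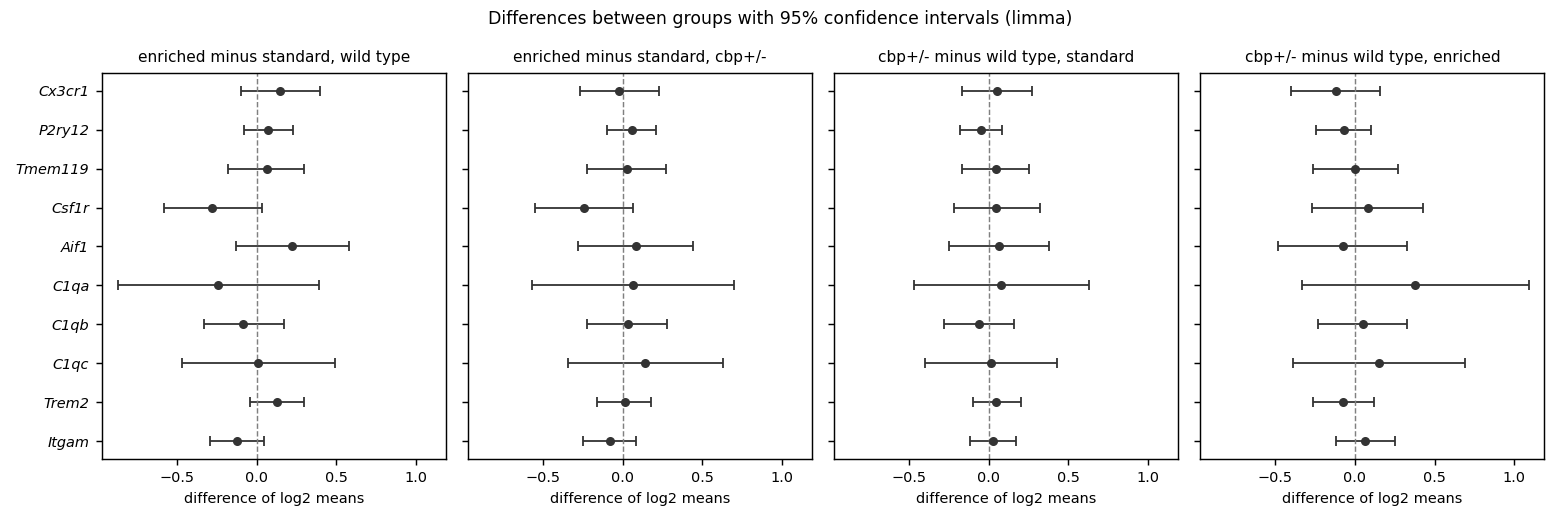
Points give the difference of log2 means (horizontal axis) for each gene (vertical axis) in 4 comparisons, with 95% confidence intervals from limma without the replicate block as bars. Every interval includes 0; the widest are those of C1qa, such as -0.33 to 1.09 between genotypes in enrichment.

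The spread of these genes was also split by replicate number within each housing, so that the shares of the pairs include the housing difference. Housing alone held 31.6% for Csf1r and 20.4% for Itgam, against a median of 9.21% over all tested probe sets. The 8 same-numbered pairs held between 54.7% (Itgam) and 90.1% (Csf1r) of each gene's sum of squares, against a median of 68.5% over all tested probe sets, and pairs of arrays no more alike than any others would hold 46.7%. Itgam and C1qb (55.1%) were near that value, and the other 8 genes lay at 63.8% or more. The 4 groups held between 3.71% (Tmem119) and 33.5% (Csf1r), with a median of 20.1% over all and 20.0% for groups that do not differ. For Csf1r, 80.4% lay between the Ward sets: 8.26 to 8.46 on the arrays numbered 1 and 2, 8.60 to 8.78 on standard-cage 3, 8.40 to 8.54 on standard-cage 4, and 7.83 to 8.26 on standard-cage 5 with enrichment 3. For C1qa it was 73.4%, with 7.38 to 7.76 on the arrays numbered 1 and 2 and 7.77 to 8.76 on standard-cage 5 with enrichment 3. Over all probe sets the median share between sets was 38.9%, and no test is given because the sets were clustered on these arrays. Trem2 had the smallest share, 14.4%.

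**Figure D3:**
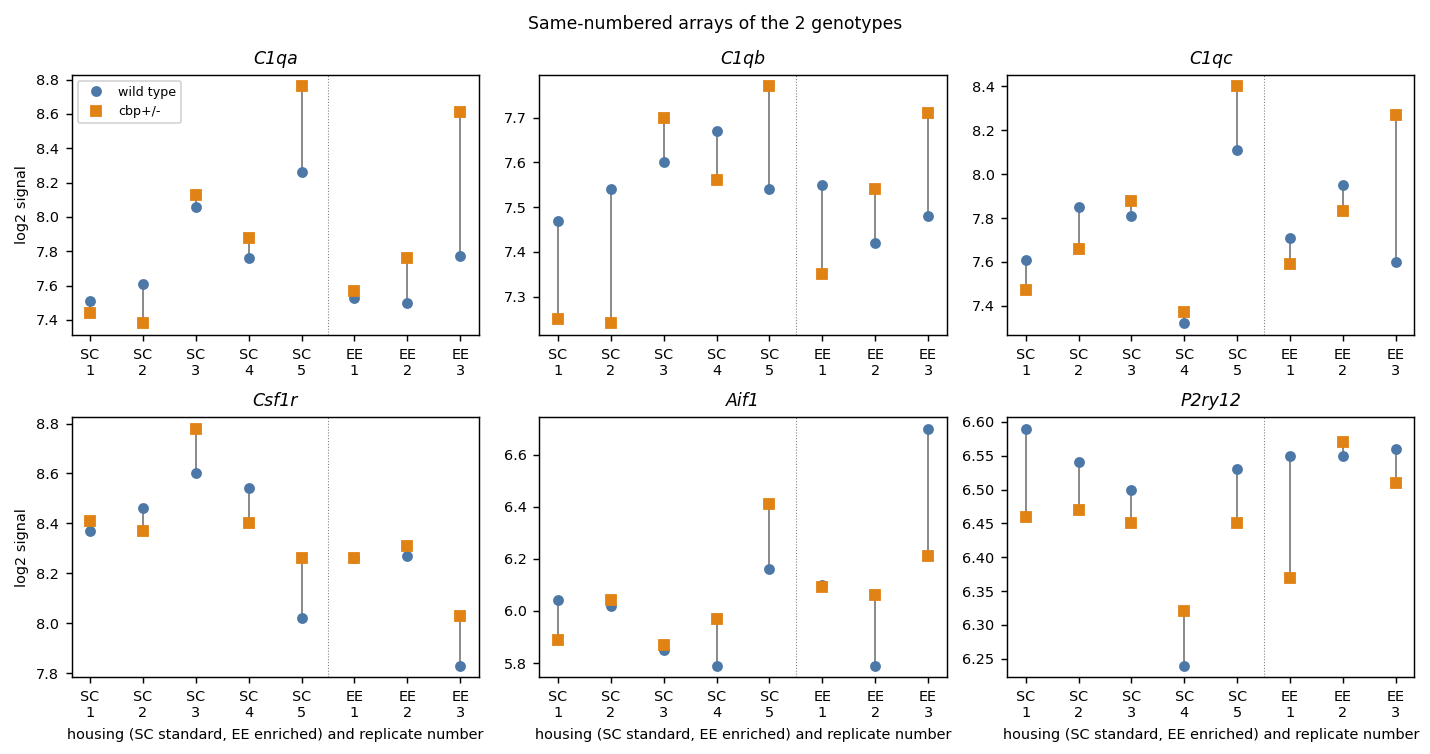
Log2 signal (vertical axis) of 6 genes on wild-type (circles) and cbp+/- (squares) arrays, by housing and replicate number (horizontal axis), with a grey line joining the 2 arrays of a number. Some pairs share a level and others do not: both P2ry12 arrays of standard-cage 4 are lowest (6.24 and 6.32), and both C1qa arrays of standard-cage 5 exceed those numbered 1 to 4.

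Across arrays the 10 genes did not move as 1 unit. Of 45 pairs of genes, 30 had a Pearson r above 0 over the deviations of 16 arrays from their group means, and the arrays of a set are not independent points. C1qa went with C1qb (r = 0.83 over 16 arrays; 0.88 over the 12 without standard-cage 5 and enrichment 3; 0.74 over the values of the 8 arrays numbered 1 and 2). Its r with C1qc was 0.76, but 0.30 over those 12 arrays and 0.46 over those 8. C1qb and C1qc had an r of 0.50, 0.12 and 0.59. Csf1r and Aif1 ran opposite (r = -0.77), though less so over the 12 arrays (-0.49) and not within the 8 (-0.051). Csf1r with C1qa changed sign, from -0.34 over 16 arrays to 0.83 over 12, and had an r of -0.16 over the 8. Cx3cr1 and Itgam had an r of 0.57, 0.46 and 0.94.

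**Figure D4:**
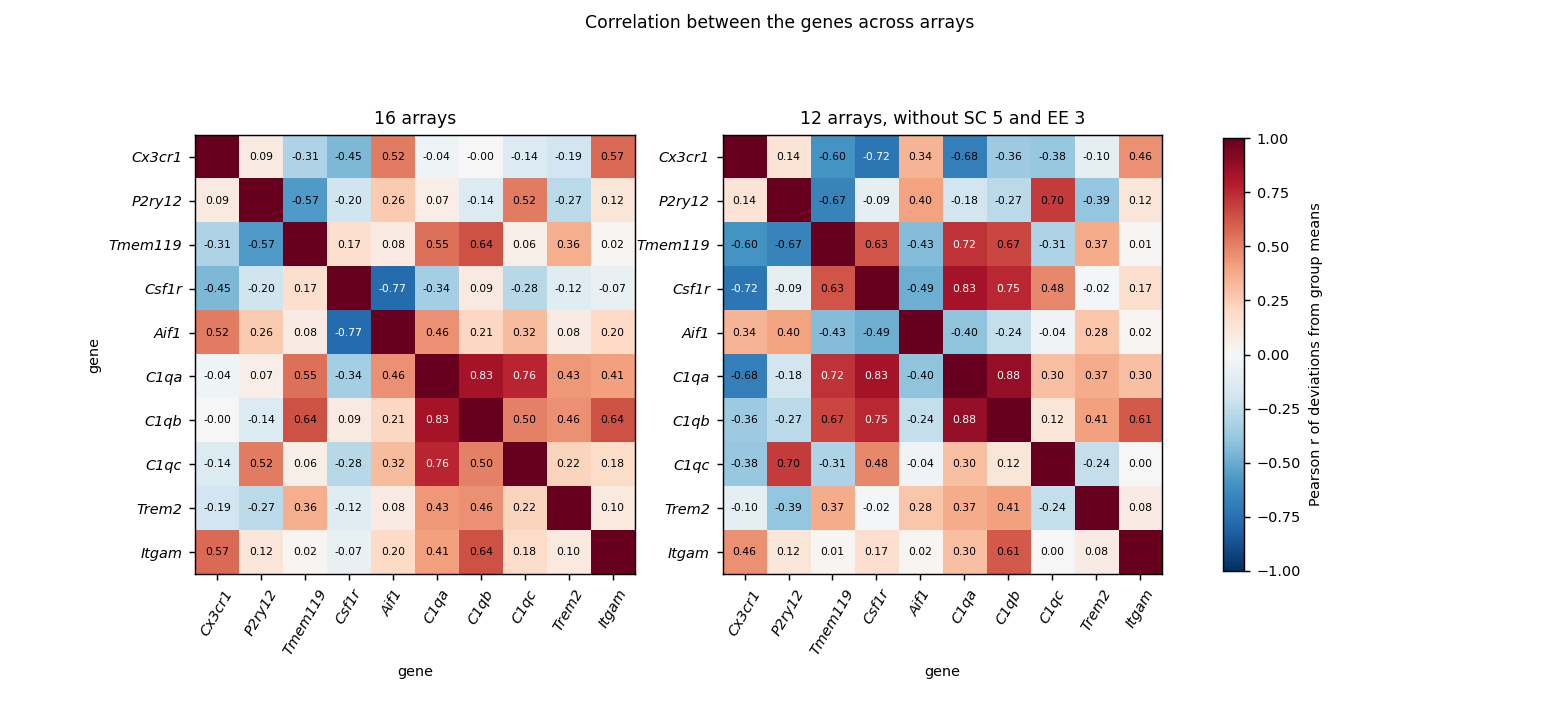
Pearson r between each 2 genes (rows and columns) over deviations from group means, on all 16 arrays (left) and on 12 arrays without standard-cage 5 and enrichment 3 (right); red is positive and blue negative. C1qa and C1qb stay at 0.83 and 0.88, while Csf1r and C1qa turn from -0.34 to 0.83 (-0.16 on the 8 arrays numbered 1 and 2, not drawn).

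The 3 genes most like each member were found by Pearson r over the deviations of the 16 arrays from their group means. The nearest were Nenf (r = 0.97), Cox5b and Ifi27 (0.96 each) for C1qa, and Mrpl52, Mpv17 and Cnrip1 (0.94 each) for C1qc; Cox5b encodes a subunit of cytochrome c oxidase and Mrpl52 a mitochondrial ribosomal protein. For Csf1r they were Ppm1f (0.97), Slc19a1 and Samd4 (0.96 each), and for Aif1 Epyc and Lsm5 (0.94 each) and Nucb2 (0.93). Itgam had BC023105 (0.94), Fyb (0.82), an adaptor of haematopoietic cells, and Mcpt1 (0.77). Those of the others had an r between 0.85 and 0.91, led by Snora21 for Cx3cr1 (0.88), Pde12 for P2ry12 (0.90), Ethe1 for Tmem119 (0.91), Mmp1b for C1qb (0.85) and Grpel2 for Trem2 (0.90). Of these 30 likenesses, 14 were again among the nearest 3 with quantile normalization and 2 once the means of the average-linkage array sets were removed.

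Other listed genes were called as rarely. The complement list was drawn widely and also holds C1ql1, C1ql2, C1ql3, C1qbp, Csmd1, Csmd2, Sez6 and Sez6l, whose part in complement was not tested. Among 39 further complement components, receptors and regulators, 0 rose and 0 fell at an adjusted p of 0.05 in any comparison. With enrichment in wild type 27 were higher and 12 lower (median 0.091, against 58.4% higher and a median of 0.029 over all probe sets). An unadjusted p under 0.05 was reached by 12 of the 39 with higher values and by 2 with lower, against 14.1% and 3.72% of all. In cbp+/- the median was 0.013. Below the WT_SC array medians of 6.27 to 6.31 lay C6, C7, C9 and Cr2 (5.07, 5.03, 5.05 and 4.94), all higher with enrichment in wild type. Above them lay Csmd1, Sez6 and Sez6l (8.21, 8.82 and 9.17), all lower. Others went the other way, such as C1qbp (7.96), C1ql1 (7.34) and Cfp (6.98), all higher, and Cd55 (5.15), Cd59a (5.94) and C1s1 (4.87), all lower. These genes are examples, and no count by signal level and direction is given. The part of signal level in these counts was not tested. The largest evidence was for Cd93, a receptor once proposed to bind C1q, which was 0.30 higher in enrichment averaged over genotypes (SE 0.065, adjusted p = 0.127), and in which the lowest of the 6 enrichment arrays exceeded the highest from standard cages. Hc, which encodes complement C5, differed by 0.15 (SE 0.035, adjusted p = 0.127). On WT_SC arrays the means of Cd93 (6.00) and Hc (5.33) also lay below the array medians. Between genotypes, 34 of 39 were lower in cbp+/- on average (median -0.038, against -0.0095 over all, of which 43.3% were higher). C7, a component of the membrane attack complex, was at -0.16 in enrichment (SE 0.040, adjusted p = 0.924).

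Of 36 other homeostatic microglia genes and 38 genes of activated or phagocytic microglia, 0 passed in either direction in any comparison. The list of 38 also holds Gfap, an astrocyte marker, and shares Apoe and Tyrobp with the partners and Itgax with the complement list. Averaged over genotypes, 24 of 36 and 32 of 38 were higher in enrichment, as were 58.9% of all probe sets. Their medians were 0.052 and 0.056, against 0.021 over all probe sets. Without Gfap it was 32 of 37, with a median of 0.058. Fcgr3, an Fc receptor, was 0.29 higher (SE 0.092, adjusted p = 0.168), Olfml3, a secreted protein of microglia, 0.27 higher (SE 0.088, adjusted p = 0.173) and Tgfbr1, a TGF-beta receptor, 0.21 lower (difference -0.21, SE 0.059, adjusted p = 0.143). Ccl4, a chemokine, was 0.19 higher with enrichment in wild type (SE 0.053, adjusted p = 0.136) and Nos2 0.13 higher on average (SE 0.042, adjusted p = 0.163). Tlr2 had an interaction of -0.31 (SE 0.10, adjusted p = 1.00). Of 14 partners and regulators of the 10 genes, 7 were higher and 7 lower. Among them were the transcription factor gene Runx1 at 0.11 (SE 0.034, adjusted p = 0.155), the adaptor Hcst at 0.18 (SE 0.073, adjusted p = 0.209) and Tgfb1 at 0.11 (SE 0.049, adjusted p = 0.234). On WT_SC arrays the means of Hcst, Ccl4, Tlr2, Nos2, Runx1 and Fcgr3 were 5.32, 5.48, 5.54, 5.55, 5.56 and 5.74. They lay below the WT_SC array medians of 6.27 to 6.31. Above those medians lay Tgfb1 (6.65), Tgfbr1 (7.56) and Olfml3 (7.72). The part of signal level in these differences was not tested.

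Border macrophages, monocytes, neutrophils and lymphocytes could carry some of these transcripts too, so their markers were compared. Of 15 border macrophage and monocyte markers 13 were higher in enrichment on average (median 0.029). Of 16 neutrophil and lymphocyte markers 15 were (median 0.072), with 0 of either list passing. Of all probe sets 58.9% were higher (median 0.021), so the median of the first list was close to that of all. The summed log2 signal of the first list was 9.16 to 9.24 on WT_SC, 9.21 to 9.33 on WT_EE, 9.20 to 9.24 on CBP_SC and 9.20 to 9.24 on CBP_EE arrays. That of the second was 9.34 to 9.44, 9.47 to 9.62, 9.32 to 9.42 and 9.40 to 9.49. Cd79a, a B cell receptor subunit, was 0.27 higher with enrichment in wild type (SE 0.047, adjusted p = 0.0579). The 10 genes themselves summed to 10.67 to 10.79, 10.65 to 10.70, 10.60 to 11.03 and 10.59 to 10.93 in the same order of groups, and overlapped between housings in both genotypes. In wild type the second list did not overlap between housings, nor did the neuron markers given above, which were lower, or the 2 blood markers, which were higher (6.92 to 7.21 against 6.63 to 6.90). Of single probe sets, 9.16% lay above and 2.00% below in that comparison, which is not a like baseline for sums of several probe sets. On WT_SC arrays the second list had means of 4.80 (Ms4a1) to 6.11 (Cd3e) and the blood markers 5.73 and 5.77. Those means lay below the WT_SC array medians of 6.27 to 6.31. The neuron markers Fibcd1, Rbfox3 and Syt1 lay above them, at 8.27, 9.50 and 12.02. The part of signal level in these shifts was not tested. Of the markers of other brain cells, 0 passed. Higher in enrichment on average were 2 of 12 astrocyte, 2 of 11 oligodendrocyte and 2 of 12 neuron markers. So were 7 of 11 endothelial, 3 of 11 choroid plexus and 2 of 2 blood markers, against 58.9% of all probe sets. The part of these cells in the results was not tested.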

How the data were processed

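Per the labels' protocols, hippocampal RNA was extracted per animal, equal amounts of 4 mice were pooled, and each of the 16 pools, called independent biological replicates, was hybridised to an Affymetrix Mouse Gene 1.0 ST array and processed in GeneSpring GX. RMA is named per the submitters' processing notes. The authors deposited a linear intensity for every probe set. Versions, baseline centring, the statistical test and the genome build: not given in the sources used here. No detection call exists, so dim probe sets were kept.

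The log2 of the deposited intensity went into limma 3.58.1 under R 4.3.3 (lmFit with 1 mean per group over 16 arrays, 12 residual degrees of freedom, eBayes), with Benjamini-Hochberg adjustment over 21780 single-symbol probe sets and a threshold of 0.05. The fit was tested on simulated data. The number of arrays limits the precision.

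Gene members and lists were chosen with earlier results of these data known. Named were all members, from each list the 3 genes with the smallest p, and the 3 genes most correlated with each member. Complement genes named for their signal level were examples picked outside that rule, except C7. Lists of other brain cells, border macrophages, leukocytes and blood are given by counts or summed signal. From these, Cd79a is named as the gene nearest the threshold, and some markers are named for their signal level. Alternatives were quantile normalization, leaving out dim probe sets, trend moderation, array weights, blocks and left-out arrays. Same-numbered arrays of the 2 genotypes deviated together from their group means within each housing (r from 0.27 to 0.76 in 8 of 8 pairs). Across housings r ran from -0.33 to 0.42, so the ranges overlap. No r of differently numbered arrays is given here, and the Ward sets hold numbers 1 and 2 together. Whether the number itself pairs the genotypes is therefore not shown, and the replicate block is given as an alternative only.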

Additional observations from a re-analysis of the deposited data

Results flagged for a closer look

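Of 22 standard-cage groups of 5 arrays (10 genes and Crebbp in each genotype), 4 had an array far from the other arrays of its group. The rule is set to flag about 1 in 20 by chance. Its share over all probe sets of these arrays, which fall into sets, is not given here. The count is therefore not read as a trait of these genes. P2ry12 was low on WT_SC_4 (6.24, others 6.50 to 6.59) and on CBP_SC_4 (6.32, others 6.45 to 6.47), the same number in both genotypes. On CBP_SC_3, Cx3cr1 was low (7.53, others 7.78 to 7.87) and Csf1r high (8.78, others 8.26 to 8.41). That array had the highest choroid plexus signal (log2 sum 12.94). WT_SC_3, with a sum of 9.52, also had its group's lowest Cx3cr1 (7.52) and highest Csf1r (8.60). A part of the choroid plexus in these values was not tested.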

How the results depend on the processing

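All counts of called probe sets were 0 in the main analysis. With enrichment in wild type they became 96 with trend moderation, 5254 with array weights, 1 with average-linkage array sets as a block, 1871 within the first of those sets, 15 with Ward sets as a block, 6513 with replicates 1 and 2 only, 112 without standard-cage 5 and enrichment 3, and 0 to 19 leaving out 1 array (3, 7 and 19 without CBP_SC_3, CBP_EE_2 and CBP_EE_3). For the averaged housing effect the same settings gave 5, 6167, 1, 1941, 15, 5470, 1021 and 0 to 230 (1 without WT_EE_2, 230 without CBP_EE_3). The replicate block gave 326, though numbers are not shown to pair housings, and quantile normalization with Ward sets gave 10. In cbp+/- housing, array weights gave 1039 and the average-linkage block 1. Array weights gave 2474 between genotypes in enrichment, 429 for the interaction and 152 for averaged genotype, where the Ward block gave 1, or 3 with quantile normalization. The replicate block changed no genotype call.

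Of 70 member differences, 52 were no larger than their SE; 44 of these took the other sign under 1 alternative or more, so no direction is read from them. Of the other 18, 11 kept their sign under every alternative run and 7 did not. In wild-type enrichment Cx3cr1 was -0.051 with array weights, -0.040 with the average-linkage block, -0.10 within its first set, -0.11 with replicates 1 and 2 only and -0.021 without standard-cage 5 and enrichment 3. There P2ry12 was -0.012 with replicates 1 and 2 only and -0.023 with quantile normalization and Ward sets, and Aif1 -0.16 with array weights, -0.0070 within the first set, -0.087 with replicates 1 and 2 only and -0.030 to 0.43 leaving out 1 array. Averaged over genotypes, P2ry12 was -0.011, -0.0026 and -0.024 with array weights, replicates 1 and 2 only, and quantile normalization with Ward sets, and Aif1 -0.032 with array weights. Itgam in cbp+/- enrichment ran from -0.16 to 0.040 leaving out 1 array, and averaged genotype C1qa was -0.0027 with replicates 1 and 2 only. Other causes were not tested. The Ward sets, replicates 1 and 2 only, and leaving out standard-cage 5 and enrichment 3 were chosen after seeing the data, and sets clustered from the tested values can make p too small.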
